A study of Mus musculus with 11 samples.

Results

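Branched-chain amino acid catabolism was followed here through 10 genes in the liver of db/db mice given an antibody against the glucagon receptor or PBS. The genes were Bckdha, Bckdhb, Dbt and Bckdk of the branched-chain ketoacid dehydrogenase, Ivd, Mccc1 and Mccc2 of the leucine branch, and Hibch, Hibadh and Aldh6a1 of the valine branch. They were taken by name, through the transcript accession that the array design attaches to each probe. That rule uses no measured value, but the genes were chosen with earlier results of these data known. Counts of them beside all genes are therefore descriptive. They had 12 probes of 39429 gene probes, and all 10 were among the 15974 genes tested.

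Leucine, isoleucine and valine are first transaminated to branched-chain ketoacids, which the mitochondrial branched-chain ketoacid dehydrogenase complex then decarboxylates irreversibly to branched acyl-CoAs. The complex is switched off when the kinase Bckdk phosphorylates its E1 alpha subunit and switched on when the phosphatase Ppm1k removes that phosphate. The acyl-CoAs then follow separate branches, leucine to acetoacetate and acetyl-CoA, valine to propionyl-CoA, and isoleucine to both acetyl-CoA and propionyl-CoA. Liver has little of the transaminase and much of the dehydrogenase, so it mainly oxidises ketoacids that other tissues release, and raised circulating branched-chain amino acids are a known feature of obese and diabetic rodents.

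RNA came from livers of db/db mice, which lack a working leptin receptor and become obese and diabetic, as 11 samples on 11 arrays. The control group was PBS (5 samples, replicates 1, 3, 4, 5 and 6), which the series design calls untreated, and the treated group received the antibody 3c7.v44 mAb against the glucagon receptor (GCGR) at 5 mg/kg (6 samples, replicates 1 to 6). Every sample of both groups was db/db, with no lean or wild-type liver, and the labels give no age, sex, route or length of treatment and do not say that the samples were separate mice, so any p-value refers to the variation among these samples, which may be technical. Liver RNA was in Cy5 and a pooled universal mouse reference RNA in Cy3 on every array, with no dye swap, and levels are given as the log2 ratio of liver to that reference.

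The arrays had a median Cy5 signal of 85 to 110 over a local background near 26 to 27, and 66.2% to 77.1% of gene spots were well above background. The fit called 2338 of 15974 genes at an adjusted p under 0.05, which is 14.6%, with 1434 that rose (8.98%) and 904 that fell (5.66%). Other scalings changed this split: rising genes made up 61.3% of calls here, 21.3% after median centring in place of loess, 45.2% with the scanner software's ratio and 50.5% with Cy5 alone. The array of anti-GCGR replicate 5 stood apart from the other antibody arrays: without it 3868 genes passed (24.2%, of which 9.85% of all genes fell and 14.4% rose), so results are given with and without it. This array was singled out after its values were seen, so p-values without it do not account for that choice. PBS samples always lay at position 1 or 2 of a slide and antibody samples at position 3 or 4, so position and group cannot be told apart.

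The tissue label was checked against 10 hepatocyte markers (among them Alb, Apoa1 and Cps1). Their PBS means lay between 4.47 (Hnf4a) and 7.30 (Serpina1a) on the log2 scale over the reference. Between the groups 0 of them passed the test, which does not bear on the label. Their mean per array lay between -0.16 and 0.094 around the PBS mean over both groups. Single markers went both ways, with log2 fold changes of -0.35 for Cps1 and 0.33 for Apoa1 that did not pass. Stellate and fibroblast markers moved with the antibody: 4 of 8 rose (Col1a1, Col3a1, Lrat and Pdgfrb), where 8.98% of all genes rose. The mean of the 8 per array lay between -0.14 and 0.16 in PBS and between 0.22 and 0.83 with the antibody, lowest on the array of replicate 5. Endothelial markers (2 of 8 rose) ran from -0.093 to 0.11 in PBS and from 0.023 to 0.42 with the antibody, and macrophage markers (1 of 7 measured rose) from -0.16 to 0.36 and from -0.11 to 0.40, again lowest among antibody arrays on replicate 5. Of 7 measured adipocyte markers 1 rose (Slc2a4), the list mean ran from -0.23 to 0.13 in PBS and from 0.31 to 0.82 with the antibody, the defining marker Adipoq had a log2 fold change of -0.21 that did not pass, and Lep was not kept. Lymphocyte (7), cholangiocyte (7), pancreatic acinar (5 of 8) and skeletal muscle (4 of 8) markers that were measured had 0 calls, and 2 of 3 measured erythroid markers rose. The part of these markers in the results below was not tested, and in bulk liver fewer cells of a type cannot be told apart from less RNA per cell.

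The upstream sequences of 2 members that fell, and of the phosphatase gene Ppm1k, which also fell, are shown because the genes moved together on the same arrays (values below). The sequences and coordinates are from RefSeq on GRCm38.p6, read 5′ to 3′ on the gene's own strand and limited to bases outside the annotated gene, and capitals mark matches on either strand to CCAAT, to GGGCGG (a GC box) and to TGACG (the core letters of the cyclic AMP response element, CRE). The windows are chr2:118861744-118861958 on the plus strand for Ivd, chr12:84451025-84451274 on the minus strand for Aldh6a1 and chr6:57535553-57535737 on the minus strand for Ppm1k.
Ivd: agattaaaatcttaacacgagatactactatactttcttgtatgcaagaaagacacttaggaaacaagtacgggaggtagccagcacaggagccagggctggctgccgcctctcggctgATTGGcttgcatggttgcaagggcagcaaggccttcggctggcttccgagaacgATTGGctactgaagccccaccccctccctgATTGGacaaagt
Aldh6a1: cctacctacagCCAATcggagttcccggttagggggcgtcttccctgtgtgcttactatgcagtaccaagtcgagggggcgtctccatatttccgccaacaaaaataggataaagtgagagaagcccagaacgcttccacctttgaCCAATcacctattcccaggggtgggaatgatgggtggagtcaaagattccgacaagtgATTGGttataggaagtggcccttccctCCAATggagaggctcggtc
Ppm1k: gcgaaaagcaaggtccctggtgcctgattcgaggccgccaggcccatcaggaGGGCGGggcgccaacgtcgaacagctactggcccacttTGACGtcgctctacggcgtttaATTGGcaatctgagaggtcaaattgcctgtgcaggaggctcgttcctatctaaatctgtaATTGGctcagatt
Of the 10 members, 9 had a window of 300 bases around a start site in the RefSeq table, with 11 windows in all, and Dbt had none. Ivd and Aldh6a1 each had a window with 4 matches to CCAAT, which 1.06% of all 32851 windows had or exceeded, and the remaining match of Ivd lies past the printed bases. The count of 4 was the largest CCAAT count of any member window, and the cut for the share equals that count, so the share is descriptive only. Mccc1 and Mccc2, which did not pass with all arrays, had 3 matches to CCAAT each. Hibch, which did not pass in the test below, had 6 matches to GGGCGG. Of all windows 5.49% had 4 or more, and the share with 6 or more was not computed. A CCAAT match stood in at least 1 window of 7 members against 37.4% of all windows, and GGGCGG in 4 members against 35.7%, shares that are per window rather than per gene. The full CRE TGACGTCA (1.79% of all windows) was in 0 members and its core TGACG (20.8% of all windows) in 0 members and once in Ppm1k. These matches describe letters only, and their absence says nothing about binding of a factor.

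With all arrays, 3 of the 10 members fell and 0 rose (of all genes, 5.66% fell and 8.98% rose): Dbt, Ivd and Aldh6a1. The remaining 7 did not pass. The median log2 fold change was -0.24 over the 10 members against 0.013 over all genes, 9 of 10 had a value below 0, and Bckdk was the member above 0. Without anti-GCGR replicate 5, 8 members fell (9.85% of all genes fell in that fit), 0 rose and the median was -0.33, with Hibch and Bckdk not passing. With all arrays 0 members had every antibody array below every PBS array (2.69% of all genes did), and without replicate 5 this held for 7 members (7.12% of all genes). Replicate 5 was the highest antibody array for all 10 members. Leaving it out therefore lowers every antibody mean, and the larger counts without it are no separate support for a fall. Members were lower than the median of all genes in 9 of 10 cases under each of the 4 scalings.

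**Figure D1:**
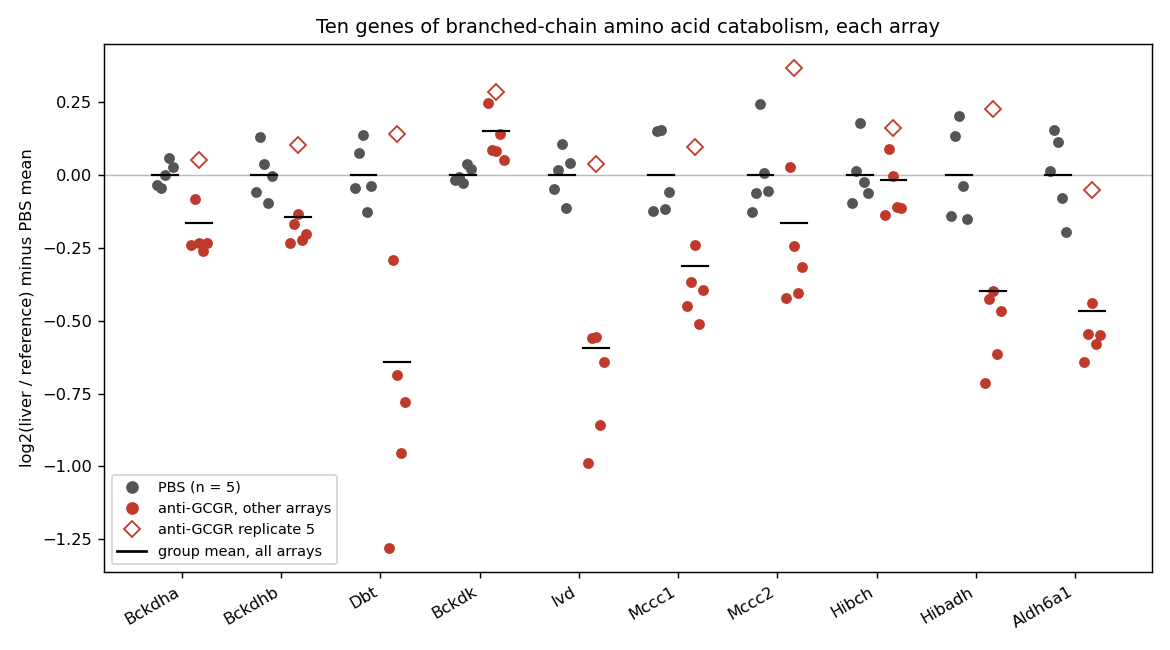
Log2 ratio of liver to reference RNA minus the PBS mean (vertical axis) for each of the 10 members, with a point for each of the 5 PBS arrays (grey) and 6 anti-GCGR arrays (red, replicate 5 as an open diamond) and a line at each group mean. The open diamond is the highest antibody array for all 10 genes, and Dbt has the lowest antibody mean, at -0.64.

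The members shared an order over the antibody arrays. Anti-GCGR replicate 5 was the highest of the 6 antibody arrays for 10 of 10 members, a position it held for 23.7% of all genes, and it was at or above the PBS mean for 9 members. It was above every PBS array for 4 members and below every PBS array for 0. By contrast, the arrays of replicates 1, 4 and 6 were below every PBS array for 9 members each, replicate 3 for 8 and replicate 2 for 7. Replicate 1 was the lowest antibody array for 7 members, replicate 4 for 2 and replicate 6 for 1. The mean of the 10 members, set against the PBS mean, lay between -0.069 and 0.11 on the PBS arrays and was -0.49, -0.22, -0.29, -0.44, 0.14 and -0.36 on antibody arrays 1 to 6. The high array was thus the one on which stellate, endothelial and macrophage markers were lowest among antibody arrays. Its place nearer to PBS was not particular to the members. Among genes described below, it was the highest antibody array for 7 of 8 other pathway genes that fell and for Etfa, but not for Pdp2. For Slc25a44, Decr1, Pdhb and Pdk1, which rose, it was the lowest antibody array, but not for Oxct1. Its share among all genes that fell was not computed.

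Within the dehydrogenase complex, Dbt, which encodes the E2 transacylase core, was 3.004, 3.12, 3.19, 2.92 and 3.01 in PBS replicates 1, 3, 4, 5 and 6. With the antibody it ran from 1.77 (replicate 1) over a median of 2.32 to 3.19 (replicate 5). All antibody arrays other than replicate 5 lay below every PBS array. Its PBS mean was 3.05 ± 0.10 (SD, 5 arrays) and its antibody mean 2.41 ± 0.50 (SD, 6 arrays), the wider spread being in the treated group. Dbt fell by 0.64 ± 0.20 (SE) on the log2 scale, a 1.56-fold lower level (limma adjusted p = 0.0447). The call was lost when any array other than anti-GCGR replicate 2 or 5 was left out, and without replicate 5 the change was -0.80 (adjusted p = 0.00162, limma). Within slides 1, 2 and 3 the difference was -1.16, 0.050 and -0.75 (slide 2 held replicate 5 and only 1 PBS array), and it was -0.70 with slide as a block (adjusted p = 0.0182, limma).

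The E1 subunits had smaller differences that did not pass with all arrays. Bckdha, the E1 alpha subunit that the kinase phosphorylates, was 3.12, 3.11, 3.15, 3.21 and 3.18 in PBS and ran from 2.89 over 2.92 to 3.21 (replicate 5) with the antibody. Its log2 fold change was -0.17 ± 0.062 (SE; limma adjusted p = 0.0884), while it passed with slide as a block (-0.19, adjusted p = 0.0241, limma) and without replicate 5 (-0.21, adjusted p = 0.00992, limma). Bckdhb, the E1 beta subunit, was 3.06, 3.24, 3.15, 3.01 and 3.11 in PBS and ran from 2.88 over 2.93 to 3.21 (replicate 5) with the antibody. For both genes the 5 other antibody arrays lay below every PBS array and replicate 5 lay inside the PBS range. The log2 fold change of Bckdhb was -0.14 ± 0.067 (SE; limma adjusted p = 0.167), and -0.19 without replicate 5 (adjusted p = 0.0201, limma). For Dld, the E3 subunit that the pyruvate and 2-oxoglutarate complexes share, the log2 fold change was -0.18 ± 0.080 (SE; limma adjusted p = 0.145), and -0.24 without replicate 5 (adjusted p = 0.0235, limma).

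The change of Dbt was set against those of the E1 subunits within each array, where Dbt minus Bckdha and Dbt minus Bckdhb were 2 of 4 pairs picked after their values were seen. Adjustment over the 4 pairs does not cover that choice, so their p-values are descriptive. Each gene was read from 1 probe, and that of Dbt was dimmer, with a mean log2 signal over both dyes of 8.72. The probes of Bckdha and Bckdhb had 12.66 and 12.33, and the part of brightness in the differences was not tested. The Dbt change was lower than that of Bckdha by 0.47 on the log2 scale (difference -0.47; two-sided exact permutation test over 462 splits, p = 0.0303, 0.0404 after Benjamini-Hochberg adjustment over the 4 pairs). The difference from Bckdhb was -0.50 (exact permutation p = 0.0303, adjusted 0.0404). In both pairs 5 of 6 antibody arrays were below every PBS array, replicate 5 being the exception. Both calls were lost in every single-array omission other than that of anti-GCGR replicate 5, with differences from -0.59 to -0.36 and from -0.60 to -0.39 and p from 0.0106 to 0.0889 after adjustment over the 4 pairs (exact permutation tests).

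The switch enzymes of the complex had fold changes of opposite sign, and only that of the phosphatase passed. Bckdk, the inactivating kinase, was the only member below the reference in PBS, at a level 2.15-fold lower than the reference RNA. It was -1.12, -1.11, -1.13, -1.07 and -1.08 in PBS and ran from -1.05 (replicate 6) over -0.99 to -0.82 (replicate 5) with the antibody. All 6 antibody arrays lay above every PBS array, and groups that did not overlap in either direction were found for 6.64% of all genes. The log2 fold change was 0.15 ± 0.053 (SE; limma adjusted p = 0.0774), which did not pass, and it was 0.12 without replicate 5 (adjusted p = 0.102, limma). It stayed above 0 in every alternative run, between 0.028 and 0.17.

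Ppm1k, the phosphatase that reactivates the complex and is no member, was 3.35, 3.58, 3.46, 3.04 and 3.40 in PBS. With the antibody it was 2.19, 2.71, 2.92, 2.44, 3.58 and 2.06 in replicates 1 to 6. All antibody arrays other than replicate 5 lay below every PBS array, and replicate 5 was level with the highest PBS array. Ppm1k fell by 0.72 ± 0.22 (SE) on the log2 scale (limma adjusted p = 0.0483), a 1.64-fold lower level, from a mean of 3.37 ± 0.20 (SD over 5 arrays) to 2.65 ± 0.56 (SD over 6 arrays). Among single-array omissions the call held only when replicate 5 of either group was left out (-0.90 for the antibody one, adjusted p = 0.00119, limma). The difference was -1.09, 0.097 and -0.998 within slides 1, 2 and 3, and -0.76 with slide as a block (adjusted p = 0.0433, limma). Ppm1k minus Bckdk, another of the 4 pairs, differed between groups by -0.86 (two-sided exact permutation test, p = 0.0108, 0.0404 adjusted over the 4 pairs), with 5 of 6 antibody arrays below every PBS array. This call too was lost in every single-array omission other than that of anti-GCGR replicate 5 (differences from -1.02 to -0.75, exact permutation p from 0.0106 to 0.0889 adjusted over the 4 pairs).

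**Figure D2:**
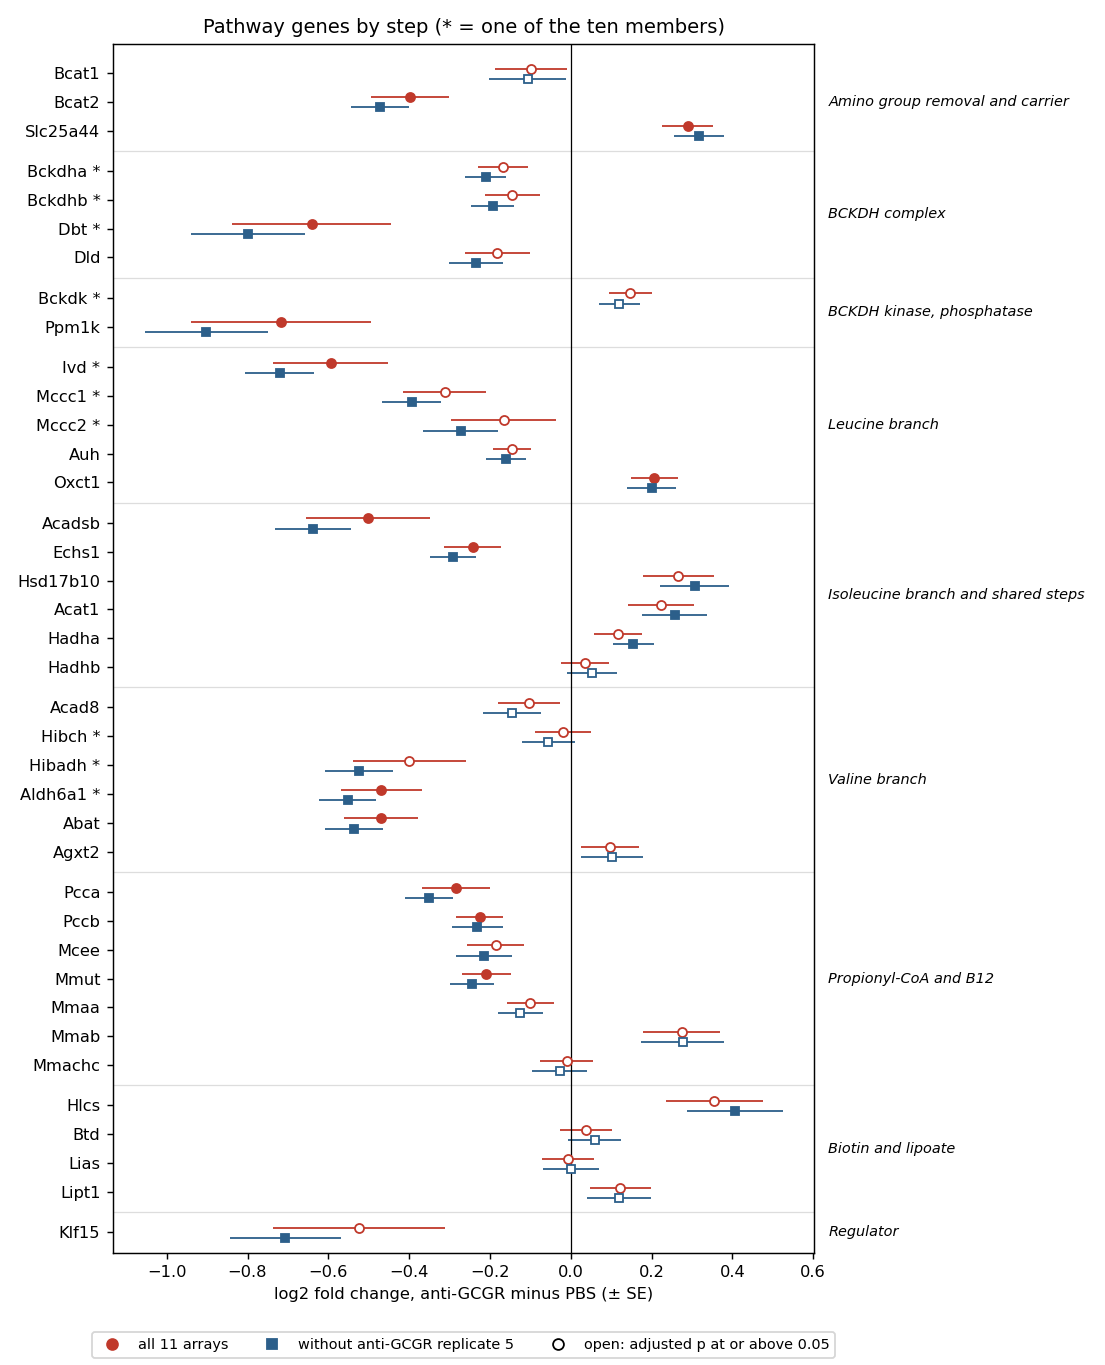
Log2 fold change, antibody minus PBS, with its standard error for the 10 members (asterisks) and other pathway genes by step, from all 11 arrays (circles) and without anti-GCGR replicate 5 (squares), with open symbols where the adjusted p was at or above 0.05. Members that passed with all arrays are Dbt (-0.64), Ivd (-0.59) and Aldh6a1 (-0.47), and 8 members have filled squares.

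In the leucine branch, Ivd, the isovaleryl-CoA dehydrogenase of the first step after the complex, was 2.63, 2.69, 2.79, 2.57 and 2.72 in PBS. With the antibody it was 1.69, 2.12, 2.12, 1.82, 2.72 and 2.04 in replicates 1 to 6. Replicate 5 lay in the PBS range and the other 5 antibody arrays lay below every PBS array. Ivd fell by 0.59 ± 0.14 (SE) on the log2 scale, a 1.51-fold lower level (limma adjusted p = 0.0173), with group means of 2.68 ± 0.084 for PBS and 2.09 ± 0.35 for the antibody (SD). It passed in all 11 single-array omissions, with -0.72 without replicate 5 (adjusted p = 0.000145, limma). The difference was -0.95, -0.15 and -0.63 within slides 1, 2 and 3 and -0.63 with slide as a block (adjusted p = 0.0122, limma). The Cy5 signal alone differed by -0.95 while the Cy3 signal of the same spots differed by -0.26.

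Mccc1 and Mccc2 encode the alpha and beta subunits of 3-methylcrotonyl-CoA carboxylase, a biotin enzyme of the same branch. Mccc1 was 2.54, 2.81, 2.81, 2.54 and 2.60 in PBS and ran from 2.15 (replicate 4) over 2.28 to 2.76 (replicate 5) with the antibody. Its log2 fold change was -0.31 ± 0.10 (SE; limma adjusted p = 0.0576), and without replicate 5 it fell by 0.39 (adjusted p = 0.00241, limma), while its other probe gave -0.18 ± 0.077 (SE) with all arrays. Mccc2 was 4.03, 4.10, 4.40, 4.17 and 4.11 in PBS and ran from 3.74 over 3.88 to 4.53 (replicate 5), above every PBS array. Its log2 fold change was -0.17 ± 0.13 (SE; limma adjusted p = 0.434), and -0.27 without replicate 5 (adjusted p = 0.0491, limma). The changes of the 2 subunits differed by -0.15 (Mccc1 minus Mccc2), which did not pass the exact permutation test (p = 0.152, adjusted 0.152 over the 4 pairs).

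In the valine branch, Aldh6a1, the methylmalonate semialdehyde dehydrogenase that ends the branch in propionyl-CoA, had the highest ratio of liver over reference of the members, 28.9-fold in PBS. It was 4.86, 5.003, 4.96, 4.77 and 4.66 in PBS and 4.21, 4.30, 4.41, 4.27, 4.80 and 4.30 with the antibody. All antibody arrays but replicate 5 were below every PBS array. Aldh6a1 fell by 0.47 ± 0.10 (SE) on the log2 scale, a 1.38-fold lower level (limma adjusted p = 0.0122), with group means of 4.85 ± 0.14 for PBS and 4.38 ± 0.21 for the antibody (SD). It passed in all 11 single-array omissions. The difference was -0.67, -0.22 and -0.47 within slides 1, 2 and 3, and -0.48 with slide as a block (adjusted p = 0.0135, limma). The Cy5 signal alone gave -0.31 and did not pass (limma adjusted p = 0.0548), with the Cy3 signal of its spot higher by 0.21 with the antibody, and its other probe gave -0.31 ± 0.13 (SE; limma adjusted p = 0.152 over all probes).

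Hibadh, the 3-hydroxyisobutyrate dehydrogenase before that step, was 3.73, 3.996, 4.07, 3.83 and 3.71 in PBS and ran from 3.15 (replicate 1) over 3.42 to 4.09 (replicate 5) with the antibody. The 5 other antibody arrays were below every PBS array. Its log2 fold change was -0.40 ± 0.14 (SE; limma adjusted p = 0.0727), which passed with slide as a block (-0.43, adjusted p = 0.0473, limma) and without replicate 5 (-0.52, adjusted p = 0.000953, limma). Hibch, the 3-hydroxyisobutyryl-CoA hydrolase that releases the acid from CoA, was 2.73, 2.84, 3.002, 2.80 and 2.76 in PBS and ran from 2.69 over 2.77 to 2.98 with the antibody, so that the groups overlapped in part. Its log2 fold change was -0.020 ± 0.070 (SE; limma adjusted p = 0.885), with 3 antibody arrays below every PBS array, and it turned to 0.025 without PBS replicate 4. Over the 3 slides, Ivd, Aldh6a1, Hibadh, Mccc1 and Bckdha were lower with the antibody in each, Bckdk was higher in each, and Dbt, Bckdhb, Mccc2 and Hibch were higher only on slide 2.

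The remaining pathway was read from 30 further genes, of which 29 were measured (Lipt2 had no named probe). In these 8 fell, 3 rose and 18 did not pass, against 5.66% of all genes that fell and 8.98% that rose, and the median log2 fold change was -0.099 against 0.013 for all genes. Without replicate 5, 12 fell and 7 rose, where 9.85% of all genes fell and 14.4% rose. The genes that fell included Bcat2, Acadsb, Abat and Ppm1k (above), and, named after their values were seen, Pcca, Pccb, Echs1 and Mmut.

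Bcat2, the mitochondrial transaminase that starts the pathway, was 0.58, 0.52, 0.41, 0.46 and 0.41 in PBS and 0.076, 0.048, 0.18, -0.17, 0.46 and -0.12 with the antibody. It fell by 0.40 ± 0.096 (SE; limma adjusted p = 0.0187), and the call was lost without PBS replicate 1 (adjusted p = 0.0523, limma) and with Cy5 alone (adjusted p = 0.0919, limma). The cytosolic transaminase Bcat1 was far below the reference, with PBS values from -3.10 to -2.63 and antibody values from -3.12 to -2.76, and its log2 fold change of -0.099 ± 0.089 (SE) did not pass (limma adjusted p = 0.501). Abat, the GABA transaminase, fell by 0.47 ± 0.091 (SE; limma adjusted p = 0.00857), passing in all 11 single-array omissions. Acadsb, the dehydrogenase of the isoleucine branch, was between 1.95 and 2.23 in PBS and between 1.23 and 2.32 with the antibody, and fell by 0.50 ± 0.15 (SE; limma adjusted p = 0.0451), a call that held, among single-array omissions, only when replicate 5 of either group was left out (-0.64 for the antibody one).

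Propionyl-CoA, where valine and isoleucine meet, is carboxylated by Pcca and Pccb to methylmalonyl-CoA, which Mmut isomerises. Pcca fell by 0.28 (limma adjusted p = 0.0391), Pccb by 0.23 (limma adjusted p = 0.0245) and Mmut by 0.21 (limma adjusted p = 0.0371), and Echs1, the enoyl-CoA hydratase, by 0.24 (limma adjusted p = 0.0352). Pcca held its call only without anti-GCGR replicate 5, Echs1 only without anti-GCGR replicate 1 or 5, Mmut only when PBS replicate 6 or antibody replicate 5 was left out, and Pccb lost it when PBS replicate 1, 3 or 4 was. Of the 8 genes that fell, 7 were highest on the array of replicate 5 among antibody arrays, the exception being Pccb (replicate 3). Klf15, a transcription factor known to induce amino acid catabolism genes, ran from 6.14 to 6.88 in PBS and from 5.52 to 6.85 (replicate 5) with the antibody, and differed by -0.52 ± 0.21 (SE), which did not pass (limma adjusted p = 0.115), and by -0.71 without replicate 5 (adjusted p = 0.00300, limma).

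Of the genes that rose, 2 are described here. Slc25a44, the mitochondrial carrier of branched-chain amino acids, was 3.63 to 3.85 in PBS and 3.87 to 4.15 with the antibody, so the groups did not overlap, and it rose by 0.29 ± 0.064 (SE; limma adjusted p = 0.0131). Oxct1, the ketone-using transferase that hepatocytes largely lack, was -4.62 to -4.37 in PBS and -4.33 to -4.25 with the antibody, without overlap, and rose by 0.21 ± 0.058 (SE; limma adjusted p = 0.0315). Both lost the call with median centring in place of loess (limma adjusted p = 0.150 and 0.426), and Slc25a44 also with Cy5 alone, at 0.086 (limma adjusted p = 0.564), and with the scanner software's ratio (limma adjusted p = 0.112). Slc25a44 passed in all 11 single-array omissions, and Oxct1 in 3, those of PBS replicate 3, PBS replicate 5 and anti-GCGR replicate 5.

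**Figure D3:**
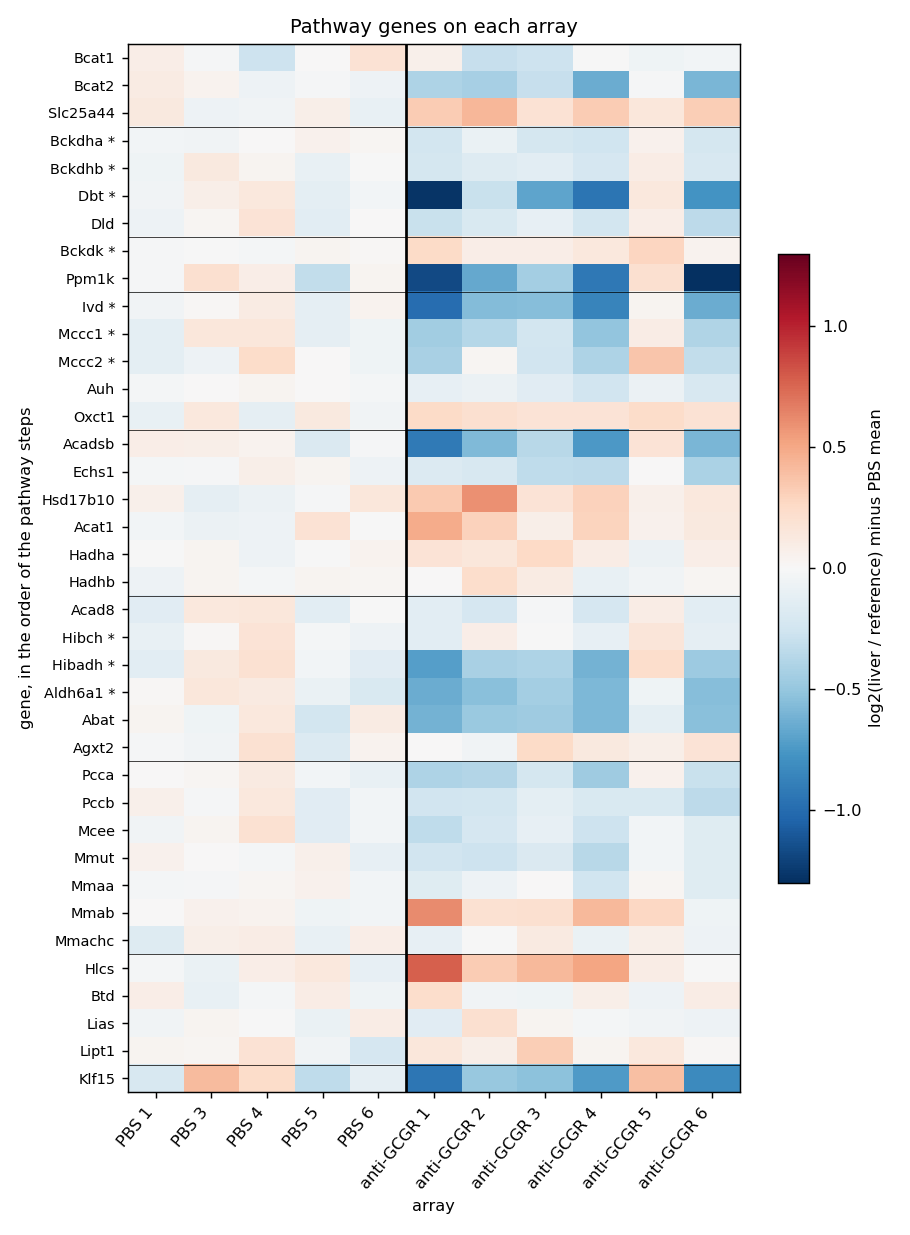
Log2 liver over reference, shown as the difference from the PBS mean, for the members and other pathway genes (rows) in the 5 PBS and 6 anti-GCGR arrays (columns). For the members other than Bckdk the antibody arrays lie mostly below the PBS mean, except on the array of anti-GCGR replicate 5.

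Other mitochondrial lists gave a reference for these changes, beside the 8.98% of all genes that rose and the 5.66% that fell. Of 18 genes of mitochondrial fatty acid oxidation, 1 rose and 1 fell, with a median log2 fold change of 0.043. Decr1, the dienoyl-CoA reductase, rose by 0.44 ± 0.074 (SE; limma adjusted p = 0.00575), and Etfa, a subunit of the electron transfer flavoprotein that takes electrons from Ivd and Acadsb as well as from the fatty acid dehydrogenases, fell by 0.36 ± 0.079 (SE; limma adjusted p = 0.0132). Among 13 genes of the related 2-oxo acid dehydrogenases and their kinases and phosphatases, 3 rose and 1 fell, with a median of 0.10. Pdhb, the E1 beta subunit of pyruvate dehydrogenase, rose by 0.50 ± 0.11 (SE; limma adjusted p = 0.0122), the kinase Pdk1 by 0.57 ± 0.12 (SE; limma adjusted p = 0.0117), and the phosphatase Pdp2 fell by 0.35 ± 0.088 (SE; limma adjusted p = 0.0202; the call was lost without PBS replicate 3, and its other probe gave -0.079). The mean of the fatty acid oxidation list lay between -0.039 and 0.076 in PBS and between -0.098 and 0.13 with the antibody, and that of the relatives between -0.049 and 0.063 and between 0.030 and 0.24. The branched-chain members had their antibody arrays between -0.49 and 0.14. These lists are described by counts and medians, and no difference between them was tested.

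**Figure D4:**
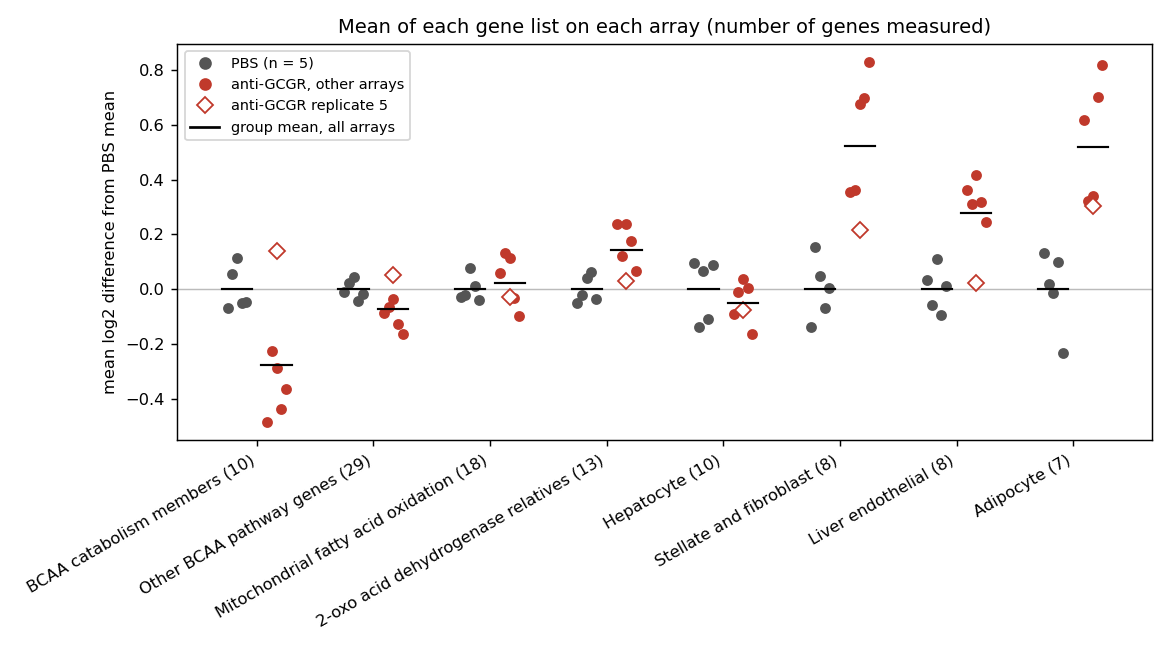
Mean log2 difference from the PBS mean (vertical axis) over the genes of 8 lists on each array, with PBS arrays in grey, anti-GCGR arrays in red, replicate 5 as an open diamond and a line at each group mean. The branched-chain members run from -0.49 to 0.14 over the antibody arrays and the stellate and fibroblast markers from 0.22 to 0.83, the array of replicate 5 being highest in the former and lowest in the latter.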

How the data were processed

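The authors deposited 2-colour Agilent scanner files, whose median Cy5, Cy3 and background signals are intensity values per the file headers, neither logged nor background-corrected, and whose software ratio of both dyes is on a log10 scale per the file headers. Agilent Feature Extraction was version 11 per the submitters' processing notes and 11.5.1.1 per the file headers. How the authors made their deposited log2 table was not given in the sources used here. Its median absolute difference from the ratios of this report was 0.00329, its column medians ran from -0.0028 to 0.0081, its direction was Cy5 over Cy3, genes were not centred, and it served as an alternative.

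With limma 3.58.1 in R 4.3.3, normexp (offset 50) and loess within arrays were applied with control spots at weight 0, uneven spots were left out and spots of a probe were averaged. Probes were named by RefSeq accession (26581 of 39429, GRCm38.p6 table), kept when well above Cy5 background on at least 5 of 11 arrays, and the brightest kept probe stood for a gene. Titles gave each sample's group and number. The test was lmFit and eBayes over 15974 genes, Benjamini-Hochberg adjusted, threshold 0.05. All 12 member probes, with 1 spot each, were well above background in both dyes on all 11 arrays, and 0 gene spots were saturated. Precision is limited by how many arrays there are. The code was tested on simulated data.

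All members were described, with Bcat1, Bcat2, Dld, Ppm1k and Klf15 and at most the 4 largest rises and falls of the other pathway genes, and the 2 largest in each direction of each comparison list. A pathway gene that this rule names is not reported here. The members and lists were chosen with earlier results of these data known. Alternatives covered background correction, normalization, filters, probe choice, slide, replicate block, array weights, channel and omission of each array. Median spot signals were used, since the files hold no mean of the spot.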

Additional observations from a re-analysis of the deposited data

Results flagged for a closer look

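In 5 of 58 groups (29 genes in 2 groups each) a sample lay far from the others of its group by Dixon's criterion, which chance gives in about 1 in 20 groups, and all 5 were anti-GCGR replicate 5 as the highest antibody array. Bckdhb was 3.21 there and at most 2.98 on the other antibody arrays. Hibadh was 4.09 against at most 3.47, and Aldh6a1 was 4.80 against at most 4.41. Outside the members, Klf15 was 6.85 against at most 5.97 and Abat 6.91 against at most 6.58. The 5 values come from the same array, so they are not independent.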

How the results depend on the processing

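Of the 10 members, 3 fell (5.66% of all genes fell), and 7 did after median centring in place of loess (13.4% of all genes), 5 with slide as a block (6.58%), 7 with array weights (9.59%) and 1 with the replicate block (2.1%), while 0 rose in these fits. Of the other pathway genes 11 were called, against 18 with array weights and 1 with the replicate block, and of all genes 2338, against 3764 and 1046. Over single-array omissions the counts ran from 2 to 8 members, 3 to 19 other pathway genes and 1240 to 3868 genes, with 1240, 1422 and 1533 genes without PBS replicate 1, 3 or 4, 1398 without anti-GCGR replicate 4 and 3868 without anti-GCGR replicate 5. The replicate block also left out anti-GCGR replicate 2, which has no PBS sample of its number. Same-numbered samples did not clearly deviate together (correlations of 0.12, 0.027, -0.013, -0.13 and 0.14 for replicates 1, 3, 4, 5 and 6). No PBS sample correlated best with its own number. So few and weak correlations show no pairing by number but cannot exclude it. Hibch turned from -0.020 to 0.025 without PBS replicate 4 and to 0.0041 without anti-GCGR replicate 1, with a range of -0.055 to 0.025. The causes were not tested. Dbt also lost its call without background correction (limma adjusted p = 0.0525) and with the replicate block (limma adjusted p = 0.0635), as did, with that block, Ivd (limma adjusted p = 0.0556), Ppm1k and the carrier Slc25a44 (limma adjusted p = 0.105 and 0.0528) and Oxct1 (limma adjusted p = 0.0806). Ppm1k also lost its call with a normexp offset of 16, no filter on dim probes, the mean of kept probes and every kept probe tested (limma adjusted p = 0.0504 to 0.0535). The replicate block also cost the calls of Abat, Etfa, Acadsb, Pdhb, Pcca, Pccb, Echs1 and Mmut (limma adjusted p = 0.0517 to 0.121). Acadsb was lost as well with the scanner software's ratio, an offset of 16 and no background correction (limma adjusted p = 0.0515 to 0.0563). Pccb was lost with the scanner software's ratio and without background correction (limma adjusted p = 0.0841 and 0.0549). Pcca was lost with Cy5 alone (limma adjusted p = 0.0932).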
